A study of Saccharomyces cerevisiae with 4 samples.

Results

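The cytosolic ribosome of budding yeast is built from proteins encoded by 137 genes, which were examined here for their response to nitrogen deficiency. They were chosen by symbol as the open reading frames (ORFs) whose names start with RPL, RPS or RPP and run from RPL1A to RPL43B, from RPS0A to RPS31 and from RPP0 to RPP2B, out of 6301 ORFs listed. Of these genes, 81 encode proteins of the large subunit, the acidic stalk included, and 56 encode proteins of the small subunit. RPP1, which fits the letters of the rule but encodes a subunit of RNase P, was left out. A value on at least 3 of the 4 arrays was available for 131 genes, 75 of the large subunit and all 56 of the small subunit, and 121 genes had a value on all 4. The other 6 genes, RPL7A, RPL12B, RPL22B, RPL29, RPL36B and RPL41B, carried no value on any array, and all of them belong to the large subunit.

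Strain S288c was compared in 2 media. The nitrogen-poor sample had been moved from nitrogen-rich medium into minimal medium holding 0.025% ammonium sulfate and neither amino acids nor adenine, and was collected 12 h later. The nitrogen-rich sample was from synthetic complete medium, in which cells were grown at 30 °C to mid-log phase. The media thus differed in ammonium, amino acids, adenine and time in culture, which cannot be told apart. Each array received cDNA of both media, primed with a multi-targeted primer and oligo-dT, and 2 arrays were run in each dye orientation. Titles place minimal medium in Cy5 on one pair of arrays (MM-Cy5, replicates 1 and 2) and synthetic medium in Cy5 on the other (SC-Cy5, replicates 1 and 2). Each replicate was a separate reverse transcription reaction, and the number of cultures is not given in the sources used here, so that the errors and p-values may cover technical spread only. Values are log2 ratios with nitrogen-poor medium over nitrogen-rich, so that a negative ratio is a lower mRNA level in nitrogen-poor medium. The channel descriptions give the dyes the other way round, and the direction was therefore taken from the levels in a supplementary table of the study, with which the arrays correlated at r = 0.964, 0.983, 0.967 and 0.972 over 1869, 1924, 1908 and 1737 ORFs. Equal amounts of mRNA were labeled and arrays were normalized to their mean. A ratio is therefore relative to the mRNA pool, and fewer transcripts per cell cannot be told apart from a change in the pool.

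A ribosome holds 1 copy of nearly every ribosomal protein, whereas the stalk proteins are present in several copies. In budding yeast most of these proteins are encoded by a pair of genes left by an ancient genome duplication, named A and B, whose products are near-identical or identical. Transcription of ribosomal protein genes takes up a large share of RNA polymerase II activity in growing yeast, and is known to fall when nutrient signaling through the TORC1 and protein kinase A pathways declines.

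Ribosomal protein genes were more often meagerly than abundantly expressed in nitrogen-poor medium, and most changes were small. Of the 131 genes fitted, 65 were lower and 15 were higher in nitrogen-poor medium (limma, Benjamini-Hochberg adjusted p of at most 0.05), and 51 were not called. The lower calls were 49.6% of these genes, against 31.5% of the 5956 ORFs fitted, and the higher calls were 11.5%, against 33.8%. Across all ORFs 65.3% were called in either direction. The median of the gene means was -0.21, compared with 0.03 over all ORFs, and the means of 95 genes were below 0. Changes past 1 in size on the log2 scale were seen for 2 ribosomal protein genes (1.53%) but for 617 of all ORFs (10.4%). The middle of the distribution was narrow, with quartiles of -0.36 and 0.01, and the extremes were -0.92 and 2.09. When each array was left out in turn, 48 of the 65 lower calls and 10 of the 15 higher calls were made every time. Where limma's moderation of the variances was left out, so that each gene kept its own, 38 genes were lower and 10 were higher. Calls over all ORFs, in either direction, fell from 3891 to 3074. The share of all ORFs called lower was not counted in that setting. Whether the excess of lower calls was as large there can therefore not be told.

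**Figure D1:**
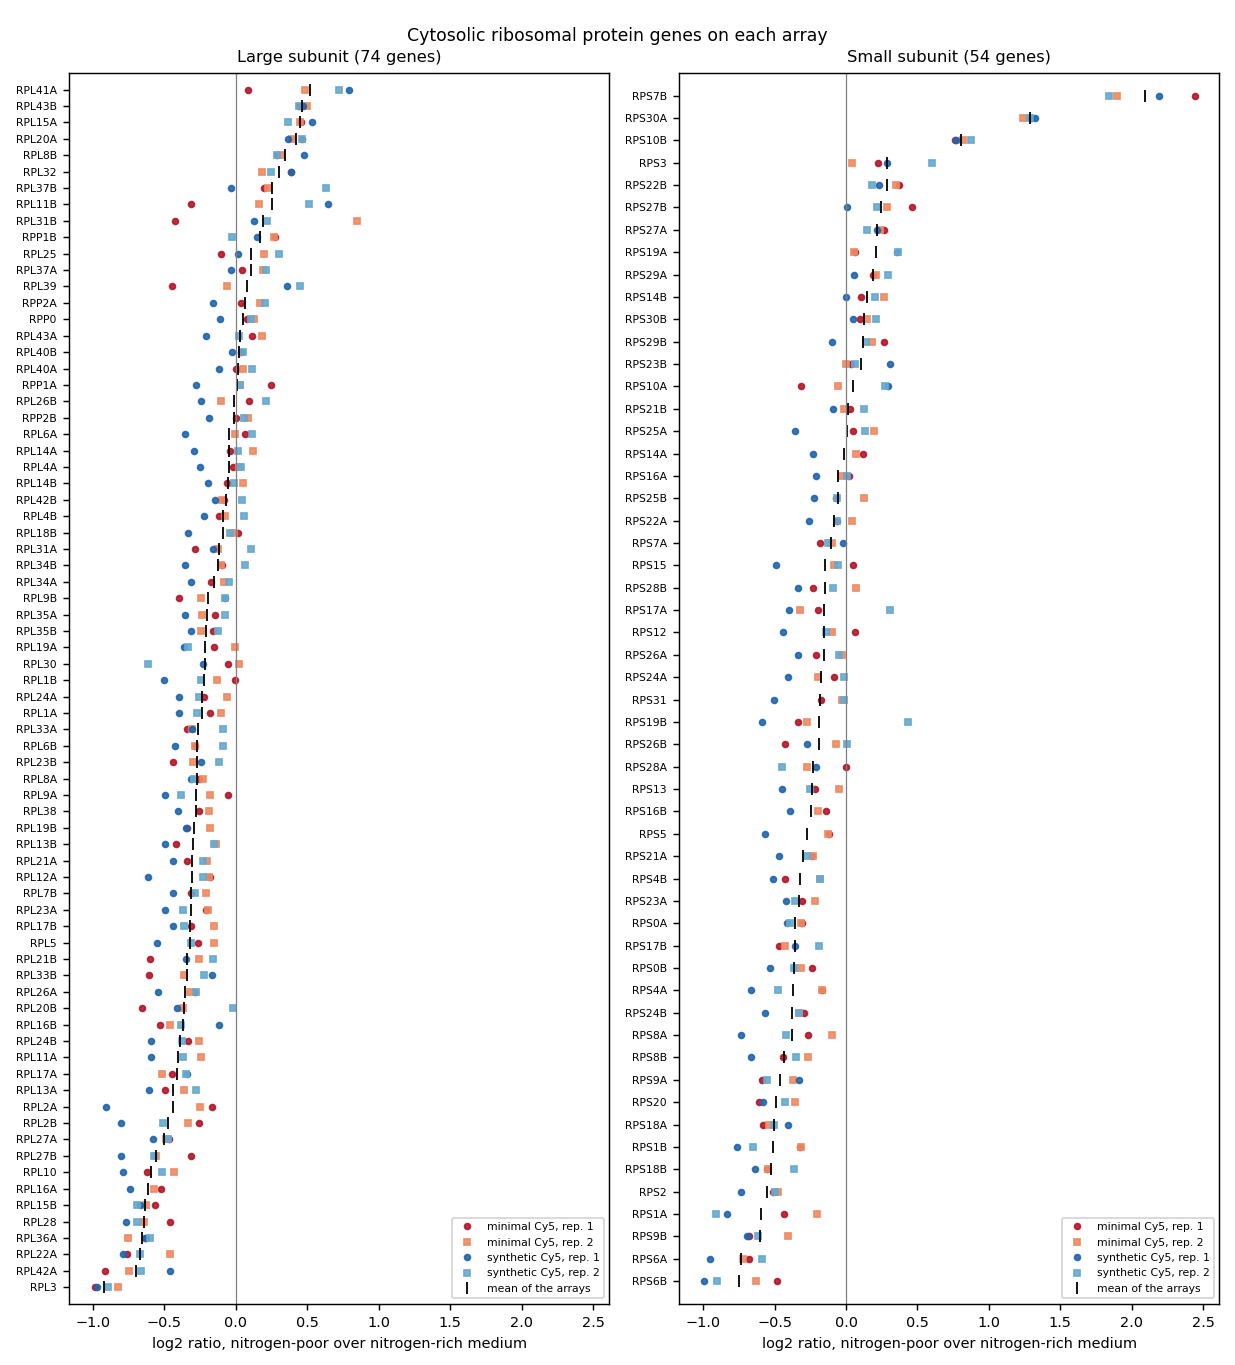
Log2 ratio (nitrogen-poor over nitrogen-rich) by array for the genes shown, with the large subunit (74 genes) on the left and the small subunit (54 genes) on the right, ordered by mean (black tick). Points are arrays, colored by the dye orientation in the sample titles. The quartiles of the means over all 131 fitted genes lie at -0.36 and 0.01, and the means of RPS7B, RPS30A and RPS10B stand to the right of all other means.

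In the large subunit 41 genes were lower, 6 were higher and 28 were not called, with a median of -0.22. These were 54.7% lower and 8.0% higher, against 31.5% and 33.8% of all ORFs. Without moderation of the variances, 21 were lower. Values by array follow the order MM-Cy5 replicates 1 and 2, then SC-Cy5 replicates 1 and 2. RPL3, whose protein reaches to the peptidyl transferase center, had the lowest ratio of all members, with -0.98, -0.83, -0.97 and -0.90. The 4 arrays lay close together, and the mean of -0.92 (SD 0.07, n = 4) corresponded to a 1.89-fold lower level in nitrogen-poor medium (limma adjusted p = 1.87e-05). RPL3 was still only the 343rd lowest of all fitted ORFs. RPL28, which encodes the protein altered in classical cycloheximide-resistant mutants, had -0.46, -0.64, -0.77 and -0.69, with a mean of -0.64 (SD 0.13, limma adjusted p = 0.000215). RPL10, which joins the subunit last, in the cytoplasm, had -0.62, -0.43, -0.79 and -0.52, a 1.51-fold lower level in nitrogen-poor medium. These 3 genes have no second copy, and each was below 0 on every array.

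Among duplicated genes of the large subunit, RPL42A had -0.92, -0.75, -0.46 and -0.66 (mean -0.70, SD 0.19), and its protein lies near the exit site for tRNA. RPL22A, which encodes an RNA-binding protein that yeast can live without, had -0.76, -0.46, -0.79 and -0.67 (mean -0.67, SD 0.15). RPL36A had -0.63, -0.75, -0.64 and -0.60 (mean -0.66, SD 0.07). The B copies of RPL22 and RPL36 carried no value, so only 1 copy of each family was seen. RPL5 and RPL11, whose proteins enter the ribosome together with the 5S ribosomal RNA, were lower for RPL5 (mean -0.32, SD 0.17) and RPL11A (mean -0.40, SD 0.17, on 3 arrays). RPL11B had -0.31, 0.16, 0.64 and 0.51 and was not called, its arrays lying on both sides of 0. Around the exit of the peptide tunnel 7 of 12 genes were lower and none was higher in limma, also at an unadjusted p of 0.05, and the median was -0.21. This was 58.3% lower, close to the 54.7% of the large subunit as a whole, against 31.5% of all ORFs. RPL25, at which the signal recognition particle docks, was not among the 7, with a mean of 0.10 (SD 0.18).

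The 6 higher genes of the large subunit were RPL41A, RPL43B, RPL15A, RPL20A, RPL8B and RPL32, with means between 0.30 and 0.52. All 6 were called whichever array was left out. RPL41A, which encodes the smallest ribosomal protein, had 0.09, 0.48, 0.79 and 0.72 (mean 0.52, SD 0.32, limma adjusted p = 0.0075). Both MM-Cy5 arrays lay below both SC-Cy5 arrays, and MM-Cy5 replicate 1 was the lowest. The gene lost its call when its own variance was used in place of the moderated one (limma adjusted p = 0.0786). RPL43B, for a zinc-binding protein, had 0.44, 0.50, 0.47 and 0.44 (mean 0.46, SD 0.03). RPL32, which has no second copy, had 0.39, 0.18, 0.38 and 0.24 (mean 0.30, SD 0.10, limma adjusted p = 0.005).

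In the small subunit 24 genes were lower, 9 were higher and 23 were not called, with a median of -0.18, and without moderation 5 were higher. With moderation 42.9% were lower and 16.1% higher, against 31.5% and 33.8% of all ORFs. The lowest were both copies of RPS6, whose protein is phosphorylated downstream of TORC1. RPS6A had -0.68, -0.72, -0.95 and -0.59 (mean -0.74, SD 0.15), and RPS6B had -0.48, -0.63, -0.99 and -0.91 (mean -0.75, SD 0.24). For RPS6B both SC-Cy5 arrays lay below both MM-Cy5 arrays. The copies overlapped over the arrays and were 1.67-fold and 1.68-fold lower in nitrogen-poor medium. RPS9B, for a protein that binds early in assembly and lines the mRNA entry channel, had -0.68, -0.41, -0.70 and -0.62 (mean -0.60, SD 0.13). RPS1A had -0.43, -0.20, -0.83 and -0.91 (mean -0.59, SD 0.33), with both arrays of 1 dye orientation below both of the other, and lost its call with its own variance (limma adjusted p = 0.0668). RPS2, whose protein also lies at the entry channel, had -0.51, -0.48, -0.74 and -0.50 (mean -0.56, SD 0.12).

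In the small subunit 3 genes stood far above the rest. RPS7B had 2.44, 1.89, 2.19 and 1.84, a mean of 2.09 (SD 0.28, n = 4) and a 4.26-fold higher level in nitrogen-poor medium (limma adjusted p = 8.42e-06). RPS7B ranked 60th highest of all fitted ORFs. RPS30A had 1.29, 1.24, 1.33 and 1.29, a mean of 1.29 (SD 0.04) and a 2.44-fold higher level (limma adjusted p = 3.7e-06). RPS10B, whose protein lies in the head of the subunit near the mRNA entry, had 0.76, 0.82, 0.77 and 0.88, a mean of 0.81 (SD 0.05) and a 1.75-fold higher level (limma adjusted p = 2.69e-05). None of the 3 came near 0 on any array, and all 3 were called under each of 12 alternative settings. The other higher genes were smaller changes, with means between 0.19 and 0.29. RPS22B had 0.37, 0.35, 0.23 and 0.18 (mean 0.28, SD 0.09), and its gene overlaps that of the small nucleolar RNA SNR44 in the RefSeq annotation. RPS3, for a protein of the mRNA entry channel, had 0.22, 0.04, 0.29 and 0.60 (mean 0.29, SD 0.23, limma adjusted p = 0.0314). The call of RPS3 was lost without SC-Cy5 replicate 1 (adjusted p = 0.0909) or 2 (adjusted p = 0.0849). That call was also lost with the gene's own variance (limma adjusted p = 0.133) and with replicate number as a block (adjusted p = 0.0566). RPS27A and RPS27B had means of 0.22 and 0.24 and were the only pair with both copies higher. Of the 9 higher calls of this subunit, RPS7B, RPS30A, RPS10B and RPS22B were made whichever array was left out.

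The stalk of the large subunit, to which translation elongation factors bind, gave no calls in any of its 5 genes (limma, 0 of 5 also at an unadjusted p of 0.05, against 65.3% of all ORFs called), and the median of their means was 0.05. RPP0, the base of the stalk, had 0.08, 0.13, -0.11 and 0.10. RPP1A had 0.25, 0.03, -0.28 and 0.03, and RPP1B had 0.27, 0.27, 0.15 and -0.03, with the highest mean of the stalk (0.17, limma adjusted p = 0.0736). RPP1B was called higher without SC-Cy5 replicate 2 (limma adjusted p = 0.029), with a dye term (adjusted p = 0.0266) and with same-numbered arrays averaged (adjusted p = 0.0333). RPP2A and RPP2B had means of 0.06 (SD 0.17) and -0.01 (SD 0.12). All 5 genes had their lowest or second lowest value on SC-Cy5 replicate 1. Without the stalk, 41 of 70 large subunit genes (58.6%) were lower, against 31.5% of all ORFs, at a median of -0.25. The genes that encode a ribosomal protein fused to ubiquitin, which supply the cell with both, were not called either, nor did any reach an unadjusted p of 0.05 in limma. RPL40A and RPL40B had means of 0.01 (SD 0.10) and 0.02 (SD 0.04, on 3 arrays), and RPS31 had -0.18, -0.03, -0.50 and -0.02 (limma adjusted p = 0.119).

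The large and small subunit differed by less than the spread between arrays. The median ratio over the large subunit was -0.19, -0.15, -0.34 and -0.09 on the 4 arrays, and that over the small subunit was -0.19, -0.10, -0.38 and -0.08. The difference of the medians, large minus small, was -0.01, -0.05, 0.03 and -0.02, with a mean of -0.01 (SD 0.03, n = 4). Lower calls made up 54.7% of the large and 42.9% of the small subunit, against 31.5% of all ORFs. Higher calls made up 8.0% and 16.1%, against 33.8%. Over both subunits the arrays themselves spread more widely, with medians of -0.19, -0.12, -0.35 and -0.09. On every array the median of ribosomal protein genes was below that of all ORFs, by 0.21 on average (SD 0.14). Genes below 0 numbered 92 of 130, 88 of 130, 107 of 131 and 76 of 123 on the 4 arrays. For comparison, UTP, NOP and RRP genes serve ribosome assembly in the nucleolus. Of 52 such genes 31 were lower (59.6%) and 3 higher (5.77%), with a median of -0.38, against 31.5% and 33.8% of all ORFs. Genes for mitochondrial ribosomal proteins were lower in 11 and higher in 23 of 64 (median 0.13). The higher share of 35.9% was close to the 33.8% of all ORFs, and the lower share of 17.2% was below their 31.5%.

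**Figure D2:**
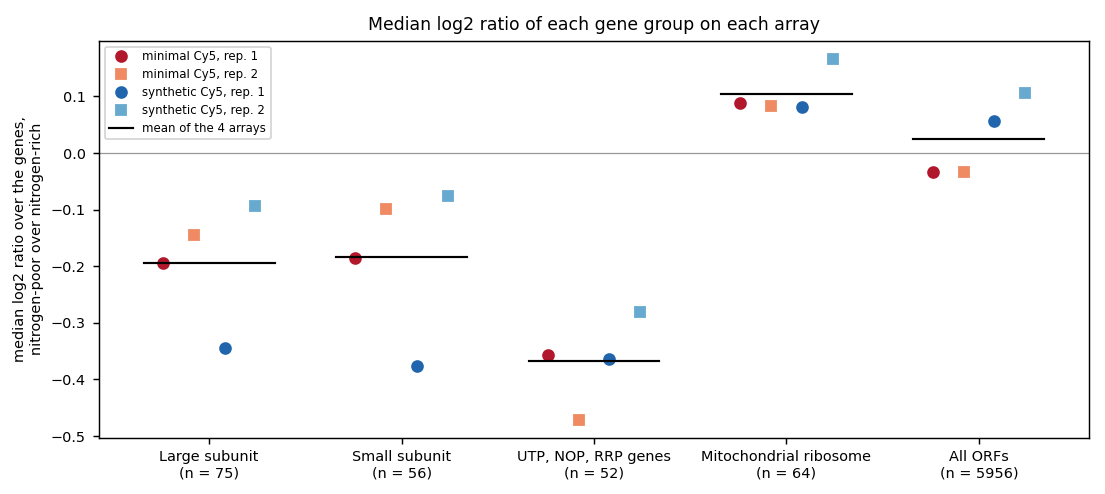
Median log2 ratio over the genes of each group on each array (points) and the mean of the 4 arrays (line), for the large and small subunit, genes of ribosome assembly, mitochondrial ribosomal proteins and all fitted ORFs. The large and small subunit lie close together on each array, between -0.38 and -0.08, and SC-Cy5 replicate 1 is the lowest for both.

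The genome holds 2 copies for 59 families, of which 54 had both copies on at least 3 shared arrays. The ratios of the copies mostly lay close together. The difference of the log2 ratios, A minus B, was taken on each array, so that the spread between arrays common to both copies cancels. Its median size over pairs was 0.13, and in 32 pairs it was smaller than its own SD over the arrays. In 21 of the 54 pairs (38.9%) the difference had 1 sign on every array, with A above B in 9 and B above A in 12. In 13 pairs (24.1%) the values of the copies did not overlap over the arrays. Pairs of other genes were not counted, so these 2 shares have no background to be set against. With 4 arrays an exact sign-flip test, two-sided, cannot give a p below about 0.13, so that it could not reach 0.05 for any pair, and no other test of single pairs was run. The mean of A was above that of B in 26 pairs and below it in 28. Of the A copies 31 of 58 were lower and 7 higher (median -0.22), and of the B copies 26 of 55 were lower and 6 higher (median -0.19). Lower calls were thus 53.4% of the A and 47.3% of the B copies, against 31.5% of all ORFs. Both copies were lower in 19 pairs, both higher in 1, neither was called in 12, and 1 copy alone was called in 19. The arrays carry PCR-amplified ORFs, to which cDNA of a close copy can also bind. How far the copies shared signal was not tested, so that a small difference does not show that both copies responded alike.

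**Figure D3:**
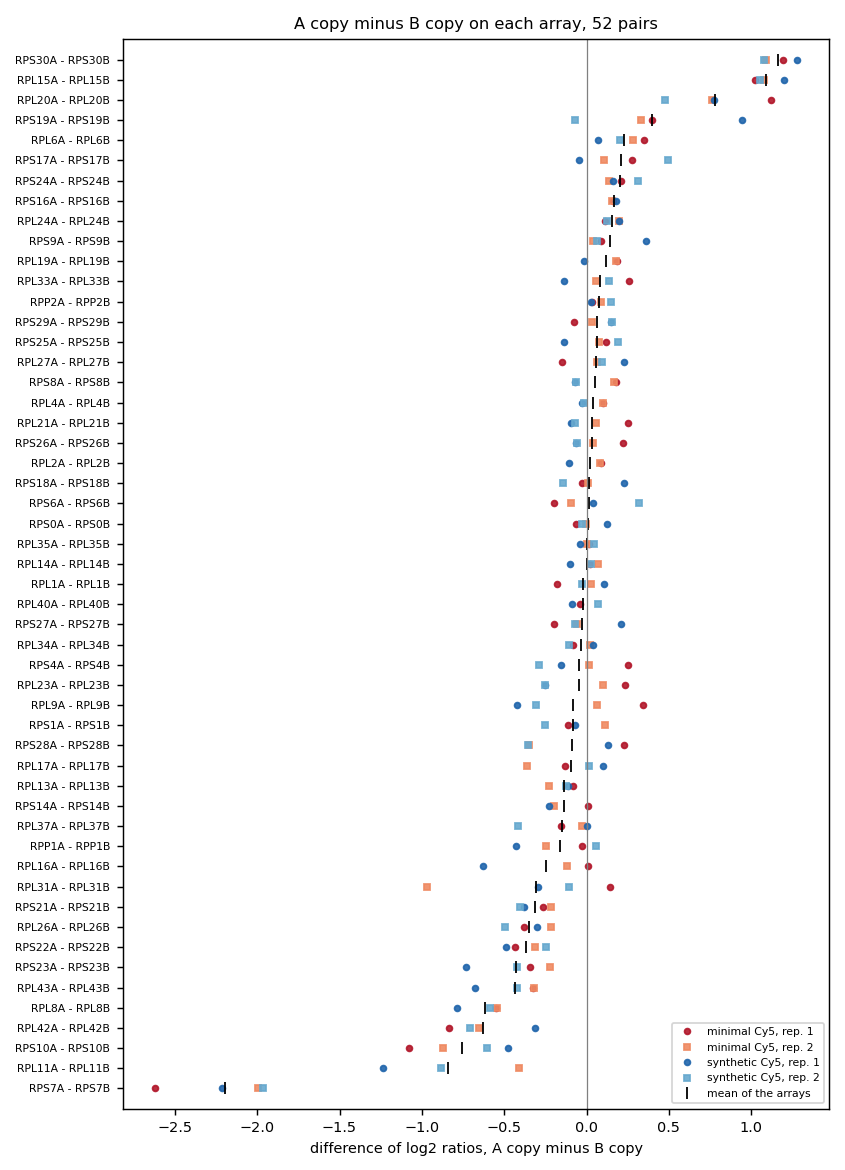
Difference of log2 ratios, A copy minus B copy, on each array (points) and its mean (black tick) for 52 of the 54 pairs with both copies measured on at least 3 arrays, ordered by the mean. Most pairs straddle 0, whereas RPS7 lies at -2.20 and RPS30 and RPL15 lie at 1.16 and 1.09.

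The largest difference was in RPS7. RPS7A had -0.18, -0.10, -0.02 and -0.13, a mean of -0.11 that was not called (limma adjusted p = 0.129), whereas RPS7B was 4.26-fold higher in nitrogen-poor medium. A minus B was -2.62, -1.99, -2.21 and -1.97, with a mean of -2.20 (SD 0.30). In RPS30 the A copy was the one that rose. RPS30B had a mean of 0.13 (limma adjusted p = 0.0881), and A minus B was 1.19, 1.09, 1.28 and 1.08 (mean 1.16, SD 0.09). In RPS10 the B copy rose, while RPS10A had -0.31, -0.05, 0.29 and 0.27, with opposite signs in the dye orientations. A minus B was -1.08, -0.87, -0.48 and -0.61 (mean -0.76, SD 0.27). In each of these families the copies did not overlap over the arrays.

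The copies were called in opposite directions in 3 families, all of the large subunit. RPL15A had 0.46, 0.45, 0.53 and 0.37 and was higher in nitrogen-poor medium (mean 0.45, SD 0.07), whereas RPL15B had -0.57, -0.63, -0.67 and -0.69 and was lower (mean -0.64, SD 0.05). A minus B averaged 1.09 (SD 0.08), with no overlap. RPL20A had 0.46, 0.39, 0.36 and 0.46 (mean 0.42, SD 0.05), and RPL20B had -0.66, -0.37, -0.41 and -0.02 (mean -0.36, SD 0.26). The lower call of RPL20B was lost without MM-Cy5 replicate 2 (limma adjusted p = 0.0541) or SC-Cy5 replicate 1 (adjusted p = 0.0706). That call was also lost with the gene's own variance (limma adjusted p = 0.109). RPL8A was lower, at -0.26, -0.23, -0.31 and -0.30 (mean -0.27, SD 0.04), and RPL8B was higher, at 0.29, 0.32, 0.48 and 0.29 (mean 0.34, SD 0.09). A minus B of RPL8, a family whose protein takes part in early large subunit assembly, averaged -0.62 (SD 0.12).

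Of the other families, RPL42 had an A minus B of -0.84, -0.66, -0.31 and -0.71 (mean -0.63, SD 0.22), with RPL42B at a mean of -0.07. RPL43 had a mean A minus B of -0.44 (SD 0.17), with RPL43A at a mean of 0.03. RPL11 averaged -0.84 (SD 0.42) on 3 arrays. Differences between -0.43 and -0.31 on the log2 scale, with 1 sign on all arrays, were seen in RPS23, RPS22, RPL26 and RPS21. At the other end, the copies of RPL14 (0.00, SD 0.07), RPL35 (0.01, SD 0.03), RPS0 (0.01, SD 0.08), RPS18 (0.02, SD 0.16) and RPS6 (0.02, SD 0.22) differed by less than the SD of the difference. Both copies of RPL35, RPS0, RPS18 and RPS6 were lower in nitrogen-poor medium, and neither copy of RPL14 was called. Across the 54 pairs the mean of A correlated with the mean of B at Pearson r = 0.28 and Spearman rho = 0.50. These are correlations across genes measured on the same arrays, and genes are not independent replicates.

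Single-copy and duplicated genes had medians close to each other. Of 18 single-copy genes 8 were lower (44.4%) and 2 higher (11.1%), with a median of -0.23. Of 113 genes with a second copy 57 were lower (50.4%) and 13 higher (11.5%), with a median of -0.20. Over all ORFs 31.5% were lower and 33.8% higher. Families with a counterpart in the bacterial ribosome had 33 of 52 genes lower and 3 higher (median -0.28). Families without one had 32 of 79 lower and 12 higher (median -0.15). In the large subunit these were 21 lower and none higher of 28 (none also at an unadjusted p of 0.05 in limma), against 20 lower and 6 higher of 47. In the small subunit they were 12 lower and 3 higher of 24, against 12 lower and 6 higher of 32. The difference between the classes was not tested.

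Of 10 genes that regulate ribosomal protein or ribosome assembly genes 6 were lower and 2 were higher. Among all ORFs 31.5% were lower, 33.8% higher and 65.3% called in either direction. CRF1, which encodes a corepressor of ribosomal protein genes, had 1.23, 0.99, 1.24 and 1.03 (mean 1.12, SD 0.13, limma adjusted p = 1.71e-05). RAP1, whose protein binds most ribosomal protein promoters, had 0.85, 0.87, 0.98 and 0.82 (mean 0.88, SD 0.07). These were the 2 higher regulators, and neither came near 0 on any array. IFH1, the coactivator that CRF1 displaces, had -0.94, -0.94, -0.82 and -0.31 (mean -0.75, SD 0.30, limma adjusted p = 0.0011). HMO1, which encodes an architectural protein of ribosomal protein promoters and ribosomal DNA, had a mean of -0.49 (SD 0.07). SFP1, an activator, and STB3, a repressor, each had a mean of -0.36. FHL1, whose protein recruits both IFH1 and CRF1, had a mean of -0.30 (limma adjusted p = 0.0267), and DOT6, for a repressor of ribosome assembly genes, had -0.21 (adjusted p = 0.0419). The calls of FHL1 and DOT6 were lost without either MM-Cy5 array, and that of DOT6 also without SC-Cy5 replicate 2. TOD6, a relative of DOT6, and SCH9, for a kinase under TORC1, were not called, with means of -0.12 and 0.01.

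Dedicated chaperones bind single ribosomal proteins until they are assembled, and 7 of 9 such genes were lower in nitrogen-poor medium and none was higher in limma, also at an unadjusted p of 0.05, whereas 31.5% of all ORFs were lower and 33.8% higher. RRB1, the chaperone of the RPL3 protein, had -1.32, -1.12, -1.18 and -1.02 (mean -1.16, SD 0.12). SQT1, the chaperone of the RPL10 protein, had -0.87, -0.98, -0.87 and -1.12 (mean -0.96, SD 0.12). Both were further below 0 than the genes of their clients, which had means of -0.92 and -0.59. ACL4, which serves the RPL4 protein, had a mean of -0.58 (SD 0.03), whereas RPL4A and RPL4B had means of -0.05 and -0.09 and were not called. SYO1, which carries the RPL5 and RPL11 proteins into the nucleus, had a mean of -0.35 on 3 arrays. Its clients RPL5, RPL11A and RPL11B had means of -0.32, -0.40 and 0.25. TSR4, for the RPS2 protein, had a mean of -0.34 and was less far below 0 than RPS2 (mean -0.56). TSR2, for the RPS26 protein, had a mean of -0.34 on 3 arrays, against -0.16 and -0.19 for RPS26A and RPS26B. BCP1, for the RPL23 protein, had a mean of -0.29 on 3 arrays, against -0.32 and -0.27 for RPL23A and RPL23B. The call of TSR2 was lost without MM-Cy5 replicate 2 or SC-Cy5 replicate 1, and that of BCP1 without the first of these. YAR1 (mean -0.05), the chaperone of the RPS3 protein, and FAP7 (mean 0.06, on 3 arrays), which serves the RPS14 protein, were not called. Their clients RPS3, RPS14A and RPS14B had means of 0.29, -0.01 and 0.14. Differences between chaperones and clients were not tested.

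**Figure D4:**
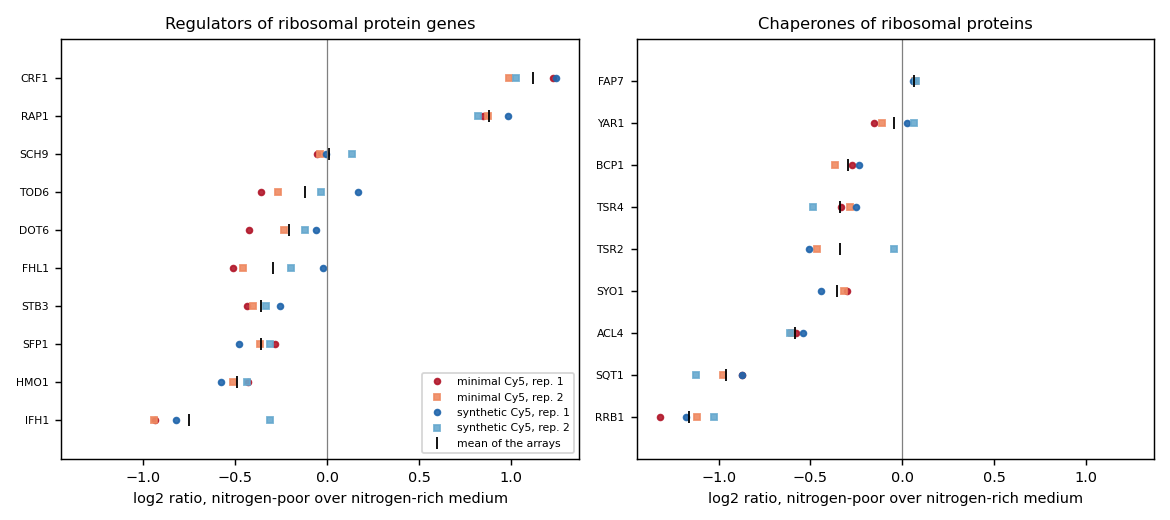
Log2 ratio (nitrogen-poor over nitrogen-rich) by array (points) and mean (black tick). On the left are 10 regulators of ribosomal protein or ribosome assembly genes, and on the right 9 chaperones of ribosomal proteins. CRF1 and RAP1 lie above 0.8 on every array, and RRB1 and SQT1 lie below -0.8 on every array.

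Genes of a pair of ribosome-bound proteins outside the symbol rule were also followed. ASC1, a scaffold on the small subunit, had 0.11, 0.19, 0.13 and 0.40 (mean 0.21, limma adjusted p = 0.0302), a call that was lost without replicate 2 of either dye orientation. STM1, which clamps idle ribosomes, had 0.00, 0.04, -0.78 and -0.79 and was not called (mean -0.39, limma adjusted p = 0.0765). Both SC-Cy5 arrays lay below both MM-Cy5 arrays, and it was called when orientation was a term of the fit (adjusted p = 0.000565). Among ribosomal protein genes with 4 values, 3 of 121 (2.48%) had both arrays of 1 orientation above 0 and both of the other below, RPL39 and RPS10A among them, and none was called. Among all ORFs with 4 values 373 of 5231 (7.13%) did so. The part of the dyes in these values was not tested.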

How the data were processed

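The values were normalized log2 ratios of 4 two-color arrays, 1 per ORF and array. From the scans the authors subtracted background, scaled each array to the mean of its well measured spots, and deposited log2 ratios that run in the same direction on all arrays. Spots that were not well measured are empty. No intensities were used here, so the authors' background correction could not be varied. The number of arrays limits the precision.

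limma 3.58.1 in R 4.3.3 was run on ORFs measured on 3 or more arrays, with no dye or replicate term and all ORFs in 1 fit, and p-values were adjusted over all of them by the Benjamini-Hochberg method. Calls were made at 0.05. The fit was first run on simulated data, with planted shifts larger than the ratios of nearly all ribosomal protein genes. That run does not show how well changes of the size seen here are called. Symbols came from the RefSeq R64 gene table, in which 5801 of 6301 ORFs were found and 500 were not. Coordinates and sequences are not given, since the build of the spotted ORFs is not given in the sources used here.

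The members and gene lists were chosen with earlier results of these data known. Genes were named by rule: the 5 highest and 5 lowest called genes of each subunit with 1 sign on all 4 arrays, the 8 pairs of largest difference on 4 arrays, pairs called in opposite directions, stalk and ubiquitin fusion genes, the 3 highest and 3 lowest single-copy genes, genes without values, and the lists of regulators, chaperones and ribosome-bound proteins. Other genes were chosen after their values were seen. Alternative settings omitted single arrays, used centering or scaling, included a term for dye or replicate number, averaged same-numbered arrays, and changed the ORFs kept, the variance, the threshold or the counting of pairs. Arrays of *N. crassa*, arrays primed by oligo-dT alone and sequenced tags were not analysed here, and the authors' BAGEL estimates were not recomputed. A few genes are counted in totals and medians but not reported singly here or drawn in the plots.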

Additional observations from a re-analysis of the deposited data

Results flagged for a closer look

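A single array lay apart from the rest in 3 of 67 sets of 4 values, by its gap to the nearest array as a share of the range of all 4, set against Dixon's critical value. Chance puts about 5% of such groups past it. For RPL8B the gap was 0.844 of the range, with SC-Cy5 replicate 1 at 0.48 and the other arrays between 0.29 and 0.32. For RPS2 it was 0.877, with the same array at -0.74 and the others between -0.51 and -0.48. For the A minus B difference of RPL8 it was 0.84, again on that array, which shares the RPL8B value. Without it RPL8B was still called higher and RPS2 lower.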

How the results depend on the processing

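Of 715 values of 60 named genes under the alternatives, 668 kept direction and side of the threshold, 24 lost the call, 8 gained one and 15 changed sign, and 41 genes kept both throughout. Genes that changed sign had means near 0 and were called in neither direction. On leaving out arrays in turn, the log2 ratio ranged from -0.0319 to 0.1697 for RPS10A, from -0.0239 to 0.1054 for RPL43A, from -0.0757 to 0.1007 for RPP1A, from -0.043 to 0.0476 for RPP2B, from -0.0226 to 0.0542 for RPL40A and from -0.0338 to 0.0293 for SCH9. With arrays centered on their medians it was -0.0213 for RPP1A, -0.0145 for RPL40A, -0.0263 for RPL40B and -0.0181 for SCH9.

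With each gene's own variance, lower calls numbered 38 instead of 65 (21 instead of 41 in the large subunit), and higher calls in the small subunit 5 instead of 9. Calls over all ORFs, in either direction, numbered 3074 instead of 3891 in that setting, and their lower share was not counted. At an adjusted p of 0.01, the large subunit had 25 lower and the small subunit 4 higher genes. With the copies of a family averaged and counted once, 37 families were lower (23 large, 14 small) and 8 higher (3 large, 5 small). That setting has fewer units to count. Leaving out 1 array gave 50 to 63 lower and 11 to 16 higher genes, and 5 to 9 higher genes in the small subunit, with 5 without replicate 2 of either orientation. The difference of the subunit medians changed sign without MM-Cy5 replicate 2 and ranged from -0.024 to 0.0024 on leaving out arrays. It was 0.0101 over ORFs on all 4 arrays and -0.0479 with pairs counted once. The share of lower among all calls stayed between 75.8% and 84.3%.

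The deviations of same-numbered arrays of the dye orientations correlated at 0.012 over 5231 ORFs. Whether such arrays shared a culture or RNA cannot be told from this, since the spread of single arrays could hide it. With the replicate number as a block, 59 genes were lower and 11 higher, 5 of these in the small subunit. Pairs with under a set protein identity were not run separately, since protein sequences were not used here. The cause of these shifts was not tested.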
